A study of Mus musculus with 4 samples.

Results

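The D-type cyclins (Ccnd1, Ccnd2, Ccnd3), their partner kinases (Cdk4, Cdk6), the CIP/KIP inhibitors Cdkn1b and Cdkn1c and the INK4 inhibitors Cdkn2a, Cdkn2b and Cdkn2c were followed in mouse embryonic fibroblasts, connective tissue cells grown from embryos. These 10 genes were taken by gene symbol from 19938 genes read by the array, with the brightest probe set used for each gene. All 10 had a probe set with a single gene symbol, and 9 of them had only 1 such probe set. The cells were wild type or NFAT5/TonEBP knockout, and were not synchronised. Culture lasted 20 hours, either in isotonic medium or with NaCl added to reach 450 mosmol/kg (hypertonic). NFAT5 (TonEBP) is the transcription factor that switches on osmoprotective genes when the surroundings become hypertonic. For each of the 4 combinations of genotype and medium, 4 samples were pooled and hybridised to 1 Affymetrix Mouse Gene 1.0 ST array. How many embryos stand behind each genotype, the passage of the cells, the osmolality of the isotonic medium and whether the cells were immortalised are points not stated by the labels used.

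D-type cyclins are made when growth factors are present. They bind CDK4 or CDK6, and the active complexes phosphorylate the retinoblastoma protein RB, which frees E2F factors to switch on genes for DNA replication. INK4 proteins bind CDK4 and CDK6 directly and keep cyclins away, whereas CIP/KIP proteins bind whole cyclin-CDK complexes and block mainly those of CDK2. In cultured fibroblasts the Cdkn2a products are known for accumulating with passage, and D cyclin RNA for falling when mitogens are withdrawn.

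Values are log2 signals as deposited, in which a difference of 1 is 2-fold, and the limit used for counting genes was 2-fold. With 1 array a group there is no spread between replicates, so no test was made and every value describes these 4 pools. In bulk RNA fewer cells with a transcript and less transcript per cell cannot be told apart. The dim limit of an array was the median of its one-gene probe sets (5.38 to 5.44), and genes above it on at least 1 array of a comparison counted as measured. All 10 genes were above this limit on all 4 arrays. As a gauge of error within an array, differences of probe sets of the same gene varied with an SD of 0.14 to 0.24 per probe set, depending on the comparison. The Nfat5 probe set read 7.74 and 8.19 in wild-type isotonic and hypertonic cells and 8.03 and 8.24 in the knockout cells. It was thus not lower in the knockout cells, and the labels do not say which part of the gene was deleted, so these cells are called knockout-labelled. Fibroblast markers were present on every array, with 9 of 11 above the dim limit on each, while none of 6 endothelial markers and at most 1 of 6 macrophage and leukocyte markers was above it on any array. Of 6 epithelial markers 3 or 4 were above it on each array.

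Promoter windows were found in RefSeq (GRCm38.p6) for 7 of the 10 genes, in 10 windows, because Ccnd3, Cdkn2a and Cdkn2c have more than 1 start. Ccnd1, Ccnd2 and Cdkn1c had no window, so their promoters were not examined. The 250 bases before the start are printed for the partner kinases, which differed in their responses, and for the neighbouring INK4 genes on chromosome 4, which both read lowest on the knockout-labelled hypertonic array. Capitals mark matches on either strand to the E-box CACGTG, to the cyclic AMP response element TGACGTCA, to the TATA motif TATAAA and to an E2F motif (TTTCGCGC or TTTGGCGC or TTTCCCGC or TTTGCCGC).
Cdk4 (chr10:127063285-127063534, plus strand): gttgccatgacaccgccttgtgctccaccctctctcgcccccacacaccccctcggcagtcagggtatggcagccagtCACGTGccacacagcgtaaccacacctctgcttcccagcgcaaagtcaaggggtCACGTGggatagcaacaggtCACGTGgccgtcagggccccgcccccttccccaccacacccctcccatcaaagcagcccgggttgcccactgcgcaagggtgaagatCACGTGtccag
Cdk6 (chr5:3343643-3343892, plus strand): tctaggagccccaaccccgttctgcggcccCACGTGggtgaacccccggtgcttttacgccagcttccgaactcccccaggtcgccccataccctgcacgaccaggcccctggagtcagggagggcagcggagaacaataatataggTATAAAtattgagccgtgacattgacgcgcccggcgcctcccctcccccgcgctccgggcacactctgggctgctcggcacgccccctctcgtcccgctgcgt
Cdkn2b (chr4:89311033-89311282, minus strand): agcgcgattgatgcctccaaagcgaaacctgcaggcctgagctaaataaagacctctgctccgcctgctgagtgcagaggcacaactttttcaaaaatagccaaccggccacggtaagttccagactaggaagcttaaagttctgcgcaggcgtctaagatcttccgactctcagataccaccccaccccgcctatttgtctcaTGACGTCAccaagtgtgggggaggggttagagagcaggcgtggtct
Cdkn2a, upstream start (chr4:89294620-89294869, minus strand): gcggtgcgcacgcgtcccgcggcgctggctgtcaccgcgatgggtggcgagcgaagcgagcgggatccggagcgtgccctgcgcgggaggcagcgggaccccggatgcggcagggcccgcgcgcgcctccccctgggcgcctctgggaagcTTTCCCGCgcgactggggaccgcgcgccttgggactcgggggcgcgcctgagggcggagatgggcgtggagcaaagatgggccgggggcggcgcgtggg
Cdkn2a, downstream start (chr4:89282193-89282442, minus strand): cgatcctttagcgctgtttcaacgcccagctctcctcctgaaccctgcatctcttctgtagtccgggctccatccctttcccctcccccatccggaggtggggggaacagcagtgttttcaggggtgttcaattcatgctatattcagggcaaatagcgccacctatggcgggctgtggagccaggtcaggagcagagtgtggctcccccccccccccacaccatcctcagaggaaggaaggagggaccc

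Cdk4 held 4 E-boxes in its window. Of 32851 such windows of all genes, 6.02% held at least 1 E-box and 7 windows, 0.021%, held 4 or more. That limit of 4 is the number found in Cdk4 itself, so this share is a description. Cdk6 held 1 E-box and a TATA motif, the latter present in 12.4% of windows. Cdkn2b held the cyclic AMP response element 39 to 46 bases before its start, a motif found in 1.55% of windows. An E2F motif, found in 1.86% of windows, lay before the upstream start of Cdkn2a and in no other window of these genes. The downstream start of Cdkn2a held none of these motifs. The core of the tonicity element bound by NFAT5, TGGAAA, was in 18.6% of all windows and in none of the 10 windows found. Those windows do not cover Ccnd1, Ccnd2 or Cdkn1c. Also sought were the GC box GGGCGG (in 32.7% of all windows), an AP-1 motif (6.75%) and a forkhead motif (3.17%). Several of the windows held GC boxes, a Ccnd3 window held the forkhead motif and none held the AP-1 motif. All these matches describe letters and not bound sites. The upstream start of Cdkn2a gives the p19ARF transcript and the downstream one p16INK4a, which share exons, and the array table has 1 probe set for both, so its signal does not say which transcript was present.

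Ccnd1, encoding cyclin D1, read 9.61 without and 8.36 with added NaCl in wild-type cells, and 8.90 and 8.44 in knockout-labelled cells. The wild-type isotonic array stood above the other 3 by at least 0.71. The hypertonic difference was -1.25 in wild-type cells, 2.38-fold lower, and -0.46 in knockout-labelled cells. Only 12 of 10134 measured genes had a lower difference than Ccnd1 in the wild-type response.

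Ccnd2, encoding cyclin D2, read 10.49 without and 9.08 with added NaCl in wild-type cells, and 9.23 and 8.86 in knockout-labelled cells. Again the wild-type isotonic array was highest, here by 1.25, and the other 3 arrays lay within 0.37 of each other. The wild-type response was -1.41, 2.65-fold lower, and only 2 measured genes had a lower one. The knockout-labelled response was -0.37. In isotonic medium Ccnd2 was 2.38-fold lower in knockout-labelled than in wild-type cells (-1.25), and 79 of 10191 measured genes differed by more in that direction.

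Ccnd3, encoding cyclin D3, read 7.65, 7.80, 7.72 and 7.80 on the same arrays in the same order. The arrays spanned 0.15, about the SD between probe sets of a gene, so no order among them can be read. The wild-type response of the third D cyclin, 0.14, thus stood apart from the -1.25 of Ccnd1 and the -1.41 of Ccnd2.

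**Figure D1:**
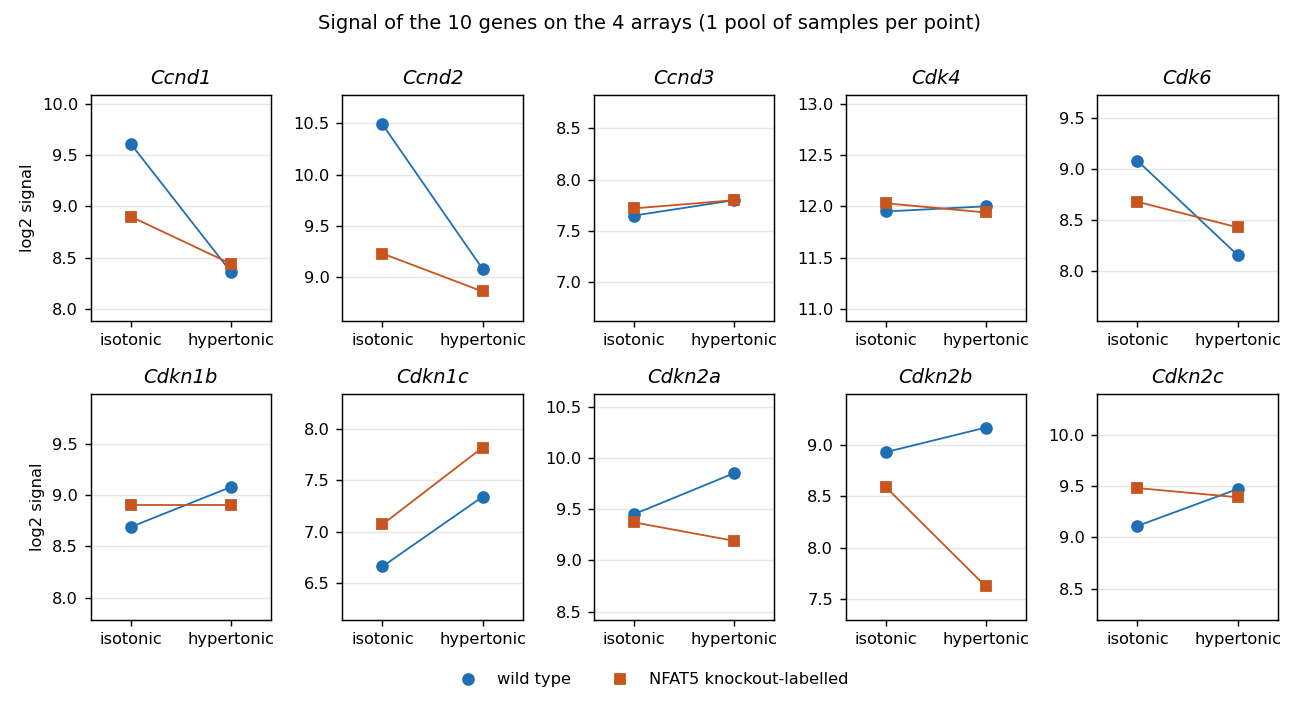
Log2 signal of each gene (vertical axis, 2.2 log2 units in every panel) in isotonic and hypertonic medium (horizontal axis) for wild-type cells (blue circles) and NFAT5 knockout-labelled cells (orange squares), 1 pool of samples per point and therefore no error bars. Ccnd1, Ccnd2 and Cdk6 are highest in wild-type isotonic cells, Ccnd3 and Cdk4 are nearly level, and Cdkn2b is lowest in knockout-labelled hypertonic cells.

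Cdk6, one of the kinases activated by D cyclins, read 9.08 without and 8.16 with added NaCl in wild-type cells, and 8.68 and 8.43 in knockout-labelled cells. Its order over the arrays was that of Ccnd1, with the wild-type isotonic array highest and the wild-type hypertonic array lowest. The wild-type response was -0.92, 1.90-fold lower and so short of 2-fold, and 59 measured genes had a lower one. The knockout-labelled response was -0.24.

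Cdk4, the other partner kinase, read 11.95 and 12.00 in wild-type cells without and with added NaCl, and 12.03 and 11.94 in knockout-labelled cells. All 4 values lay within 0.09, less than the SD between probe sets. Its responses of 0.04 and -0.09 were near the medians of all measured genes, -0.02 in wild-type and -0.09 in knockout-labelled cells.

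Cdkn1b, encoding p27Kip1, read 8.69 and 9.08 in wild-type cells without and with added NaCl, and 8.90 on both knockout-labelled arrays. The wild-type response was 0.39, 1.31-fold higher, and the knockout-labelled response was 0.00. A second, dimmer probe set of Cdkn1b gave a wild-type response of 0.70 and a knockout-labelled one of 0.12. Both probe sets read higher in hypertonic than in isotonic wild-type cells, though by different amounts.

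Cdkn1c, encoding p57Kip2 and expressed from the maternal allele, read 6.66 without and 7.34 with added NaCl in wild-type cells, and 7.07 and 7.82 in knockout-labelled cells. Both hypertonic arrays lay above both isotonic arrays. The responses were 0.68 in wild-type cells and 0.75, or 1.68-fold, in knockout-labelled cells. They stood at percentiles 97.0 and 98.4 of all measured genes in those comparisons. It was also higher in knockout-labelled cells in either medium, by 0.41 and 0.48.

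Cdkn2a, encoding p16INK4a and p19ARF, read 9.45 without and 9.85 with added NaCl in wild-type cells, and 9.37 and 9.19 in knockout-labelled cells. The wild-type response was 0.40 and the knockout-labelled response -0.17, the latter within the probe set SD of 0.19 for that comparison. Signal was present in both genotypes, well above the dim limit. In hypertonic medium it was 1.58-fold lower in knockout-labelled than in wild-type cells (-0.66).

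Cdkn2b, encoding p15INK4b, read 8.93 without and 9.17 with added NaCl in wild-type cells, and 8.59 and 7.62 in knockout-labelled cells. The knockout-labelled hypertonic array stood below the other 3 by at least 0.97. In knockout-labelled cells the response was -0.97, 1.95-fold lower, and 348 of 10277 measured genes had a lower one. The wild-type response was 0.24. In hypertonic medium Cdkn2b was 2.93-fold lower in knockout-labelled than in wild-type cells (-1.55), with 235 of 10374 genes lower still.

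Cdkn2c, encoding p18INK4c, read 9.11 without and 9.47 with added NaCl in wild-type cells, and 9.48 and 9.39 in knockout-labelled cells. The wild-type isotonic array was lowest, by 0.28, and the other 3 lay within 0.09. The wild-type response was 0.36 and the knockout-labelled response -0.09. After each gene's own mean was subtracted, the distance between Cdkn2c and Cdkn1b was 0.14, the same as between the nearly level Ccnd3 and Cdk4, so it shows little beyond small ranges. The closest pattern to Ccnd1 among the 10 genes was that of Cdk6, at 0.37.

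The first comparison asked how the 10 genes responded to hypertonic medium in wild-type cells. Ccnd1, Ccnd2 and Cdk6 read lower with added NaCl, whereas all 5 inhibitor genes read higher, by 0.24 to 0.68. Of all measured genes 46.0% were above 0. None of the inhibitors reached 2-fold, and Cdkn2b (0.24) lay within 2 probe set SDs (0.28) of no difference, as Ccnd3 and Cdk4 did. At least 2-fold lower were 2 of the 10, Ccnd1 and Ccnd2, where 0.414% of all measured genes were. None was at least 2-fold higher, where 1.01% of all genes were. The median of the 10 was 0.19, beside -0.02 for all measured genes.

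In knockout-labelled cells no member reached 2-fold, where 0.379% of all measured genes were higher by that much and 3.08% were lower. Of the genes past 2-fold 11.0% were higher as deposited, 22.7% after quantile normalization and 22.1% after centring. The differences ran from -0.97 for Cdkn2b to 0.75 for Cdkn1c, with a median of -0.13 beside -0.09 for all genes, and 7 of the 10 lay within 2 probe set SDs (0.38) of no difference. Of the 5 inhibitor genes Cdkn1c was above 0, Cdkn2a, Cdkn2b and Cdkn2c were below 0, and Cdkn1b was level at 0.00, or 0.06 to 0.09 under the scaling alternatives and the mean of its probe sets. Of all measured genes 39.9% were above 0. Which knockout-labelled array is the hypertonic one is known from the labels alone, and if the arrays were exchanged each of these differences would change sign.

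**Figure D2:**
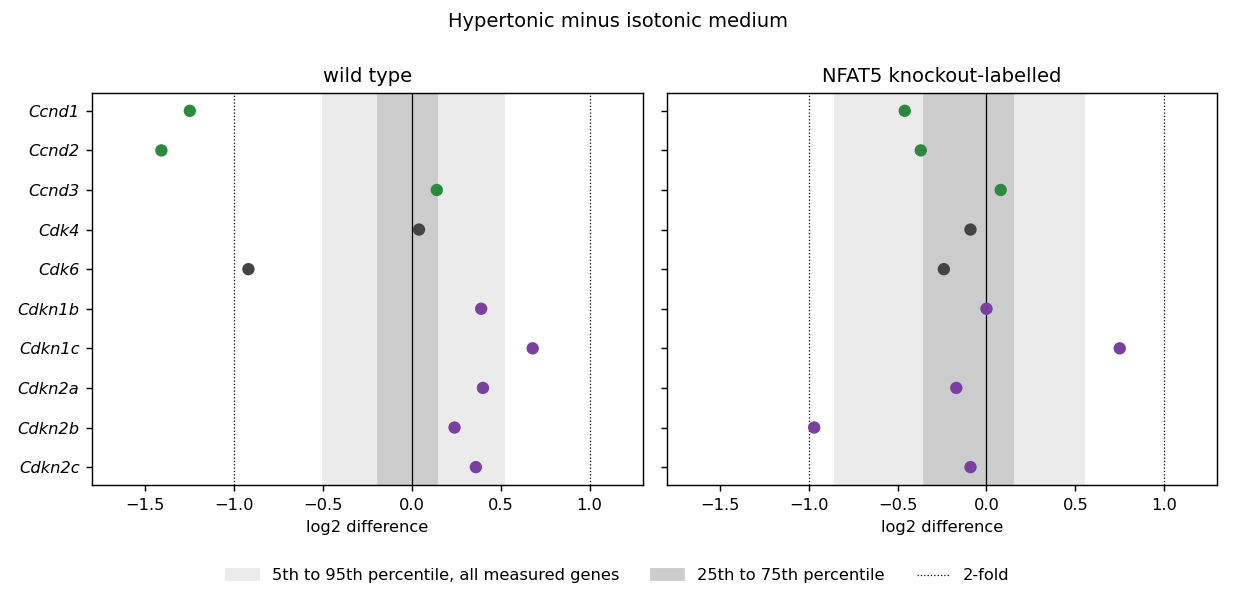
Log2 difference between hypertonic and isotonic medium (horizontal axis) for each gene (vertical axis) in wild-type cells (left) and NFAT5 knockout-labelled cells (right), coloured green for cyclins, grey for kinases and purple for inhibitors. Shading shows the middle 50% and 90% of all measured genes and dotted lines 2-fold. In wild-type cells Ccnd1 (-1.25), Ccnd2 (-1.41) and Cdk6 (-0.92) lie far to the left and the inhibitors to the right of 0.

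The genotypes were then compared in isotonic medium. Ccnd2 (-1.25) was the 1 gene at least 2-fold lower in knockout-labelled cells, where 1.28% of all measured genes were, and none was at least 2-fold higher, where 1.59% were. Ccnd1 (-0.71), Cdk6 (-0.41) and Cdkn2b (-0.35) were lower by less, and Cdkn1c (0.41) and Cdkn2c (0.37) were higher by less. The median of the 10 was -0.01, beside 0.03 for all genes. With the knockout-labelled arrays exchanged, 4 genes pass 2-fold: Ccnd2 (-1.63), Cdkn2b (-1.31), Ccnd1 (-1.17) and Cdkn1c (1.16). Of all measured genes 6.8% then pass it.

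In hypertonic medium the D cyclins were nearly level between the genotypes, with differences of 0.08 for Ccnd1, -0.22 for Ccnd2 and 0.00 for Ccnd3. Cdkn2b (-1.55) was the 1 gene at least 2-fold lower in knockout-labelled cells, where 6.43% of all measured genes were. None was at least 2-fold higher, where 2.57% were. Cdkn2a differed by -0.66, Cdkn1c by 0.48 and the other 7 genes by at most 0.27 either way. With the knockout-labelled arrays exchanged Cdkn2b differs by -0.58 and no gene passes 2-fold.

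Some genes on the marker lists of other cell types differed between the genotypes too. On the muscle and neural lists Myh11, Des, Myod1, Myog, Sox10, Mbp and S100b were below the dim limit on every array. The summed level of the smooth and skeletal muscle markers was 11.71 and 12.03 in wild-type and 10.13 and 9.72 in knockout-labelled cells, carried by Acta2 and Tagln, the 2 of 6 above the dim limit. That of the neural and Schwann markers was 9.05 and 8.73 against 7.78 and 8.25, carried by Tubb3 and Nes, the 2 of 5 above the limit. For the fibroblast markers it was 14.33 and 14.47 against 14.09 and 13.64. Single fibroblast markers differed by more than this sum. Of 9 measured, 2 were at least 2-fold lower in knockout-labelled cells in isotonic medium, where 1.28% of all measured genes were. In hypertonic medium 6 were, where 6.43% of all measured genes were. The medians of the fibroblast markers were -0.36 and -1.55. The markers lower in both media included S100a4 (-2.24 and -3.81) and the collagen gene Col3a1 (-0.36 and -1.67). For the epithelial markers the summed level was 8.55 and 8.48 against 8.48 and 8.65, with Cdh1, encoding E-cadherin, at -0.71 and -0.84 and the keratin gene Krt18 at -0.18 and 0.71. Their part in the genotype differences was not tested.

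**Figure D3:**
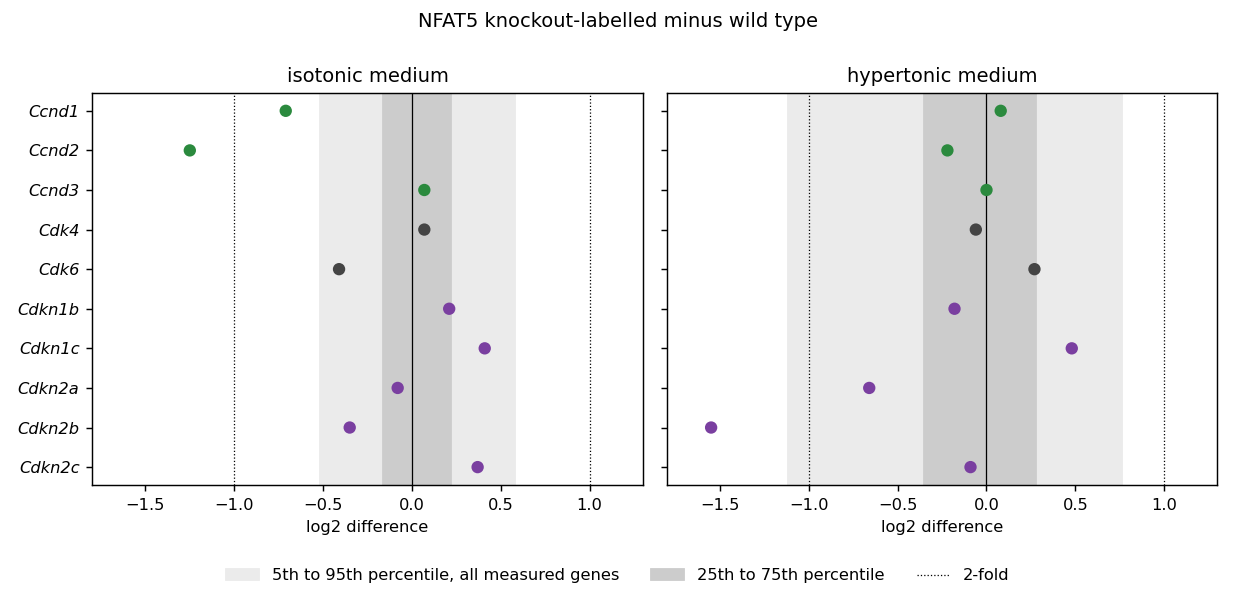
Log2 difference between NFAT5 knockout-labelled and wild-type cells (horizontal axis) for each gene (vertical axis) in isotonic medium (left) and hypertonic medium (right), with colours, shading and dotted lines as in the plot of responses. Ccnd2 (-1.25) passes 2-fold on the left and Cdkn2b (-1.55) on the right.

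The difference between the responses, knockout-labelled minus wild type, was 1.03 for Ccnd2, 0.79 for Ccnd1 and 0.68 for Cdk6, and -1.20 for Cdkn2b, -0.57 for Cdkn2a and -0.46 for Cdkn2c. Ccnd2 was the 1 gene at least 2-fold positive, where 1.41% of all measured genes were, and Cdkn2b the 1 at least 2-fold negative, where 5.53% were. These 3 positive values belong to the genes that were highest on the wild-type isotonic array, and Cdkn2b was lowest on the knockout-labelled hypertonic one. Both signals are added in this difference, so its sign follows in part from the calculation. The same wild-type isotonic array also enters the wild-type response and the isotonic genotype difference, so these results are not independent. With the knockout-labelled arrays exchanged Ccnd2 (1.78), Ccnd1 (1.71) and Cdk6 (1.17) pass 2-fold in the positive direction and Cdkn1c (-1.43) in the negative one, and Cdkn2b turns to 0.73. Of all measured genes 6.92% then pass 2-fold in either direction.

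Genes elsewhere on the array with the most similar pattern were sought for the 4 members that spanned at least 1 log2 unit, by the distance between the 4 signals after subtracting each gene's mean, among 10155 genes. For Ccnd1 these were Edn1, encoding endothelin 1 (distance 0.15), Itga6, encoding integrin alpha 6 (0.21), and the small nucleolar RNA gene Snora69 (0.22). Edn1 read 6.10, 5.04, 5.44 and 5.07 on the arrays in the order used above, so 2 of its values were below the dim limit. Snora69 and, among the genes nearest to Ccnd2, Fez1 were below it on 3 arrays each, and Ypel2, nearest to Cdkn1c, on 1. For Ccnd2 they were Klhl30 (0.25), Fez1 (0.36) and Ak5, encoding an adenylate kinase (0.38). For Cdkn1c they were Ypel2 (0.06), Hexim1, encoding an inhibitor of the elongation factor P-TEFb (0.09), and Zfp553 (0.12). For Cdkn2b they were Nrm, encoding nurim (0.08), Vkorc1, encoding vitamin K epoxide reductase (0.08), and Slc50a1, encoding a sugar transporter (0.08). With 4 arrays many genes share a shape, so these distances are a description.

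Genes that act beside or after the D cyclins were taken from lists. Of 15 measured replication genes under E2F control none differed 2-fold in either genotype. Of all measured genes 1.42% did in wild-type and 3.46% in knockout-labelled cells, so none among 15 is near that share. The medians of the replication genes were -0.03 in wild-type and -0.07 in knockout-labelled cells. Under other scalings these medians lay between -0.01 and 0.01 and between -0.02 and 0.01. Mcm2, a subunit of the replicative helicase, differed by -0.03 and 0.07 in the wild-type and knockout-labelled responses, and Pcna, the sliding clamp, by -0.03 and 0.17. The largest wild-type difference was that of Rrm2, a subunit of ribonucleotide reductase (-0.44), and the largest knockout-labelled one that of the thymidine kinase gene Tk1 (-0.78).

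Of 10 genes of cyclin E, CDK2 and S phase entry none differed 2-fold in either response, where 1.42% and 3.46% of all genes did. Their medians were -0.12 and -0.14, the latter -0.05 to -0.04 under other scalings. Ccne2, encoding cyclin E2, had the largest wild-type difference (-0.37). In knockout-labelled cells Cdk7 (-0.63) and Mnat1 (-0.57), parts of the CDK-activating kinase, had the largest. Of 11 measured mitosis and proliferation markers none differed 2-fold, again near those shares of all genes. Their medians were 0.01 and -0.19, the latter -0.10 to -0.09 under other scalings. Mki67, encoding the proliferation antigen Ki-67, differed by 0.16 and -0.26.

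Within the RB family and E2F factors, 13 measured genes, 1 was at least 2-fold higher in the wild-type response. This was Tfdp2, encoding a partner of E2F factors, at 1.22, where 1.01% of all measured genes were at least 2-fold higher. Rb1, encoding RB itself, read 6.82, 7.82, 7.66 and 7.20 on the 4 arrays and so was just short of 2-fold higher in wild-type hypertonic cells, and the RB relative Rbl2 differed by 0.62. Their knockout-labelled responses were -0.45 for Rb1 and -0.01 for Rbl2. E2f3 and E2f4 each differed by -0.53 in wild-type cells, and by -0.42 and 0.02 in knockout-labelled cells. The largest knockout-labelled differences were those of E2f5 (-0.77) and Rbl1 (-0.67), which differed by -0.38 and -0.10 in wild-type cells. The list's medians were -0.24 in the wild-type and -0.10 in the knockout-labelled response, the latter -0.06 to 0.03 under other scalings.

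Of 19 measured transcriptional regulators of D cyclin genes, 13 were below 0 in the wild-type response and 13 above 0 in the knockout-labelled response, with medians of -0.19 and 0.39. Of all measured genes 46.0% were above 0 in the wild-type response and 39.9% in the knockout-labelled one. Jun, an AP-1 subunit known to drive Ccnd1, was the 1 member past 2-fold, at -1.06 in wild-type cells. At least 2-fold lower in that response were 0.414% of all measured genes. In knockout-labelled cells Jun differed by 0.66. Myc differed by -0.69 and 0.41, and the AP-1 gene Fosl1 by -0.54 and 0.84. Egr1, an immediate early transcription factor, differed by -0.53 and -0.69, so it was lower in both responses.

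Among 14 measured regulators of the INK4 locus, the inhibitors of differentiation Id3 (1.52) and Id2 (1.39) were at least 2-fold higher in the wild-type response. Of all measured genes 1.01% were. None was in the knockout-labelled response, where 0.379% of all genes were, and Id3 differed by -0.38 and Id2 by -0.39. In isotonic medium both were already higher in knockout-labelled than in wild-type cells, Id3 by 2.16 (9.38 against 7.22) and Id2 by 1.19 (8.73 against 7.54). The Polycomb genes Bmi1 and Ezh2, whose products silence the locus, differed by -0.04 and 0.04 in wild-type and by 0.01 and 0.15 in knockout-labelled cells. Beyond the 10 genes, the INK4 gene Cdkn2d (p19INK4d) differed by 0.11 and -0.08, and Cdkn3, encoding a phosphatase that dephosphorylates CDK2, by -0.02 and -1.10. The 12 measured housekeeping genes had medians of 0.01 in both responses.

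**Figure D4:**
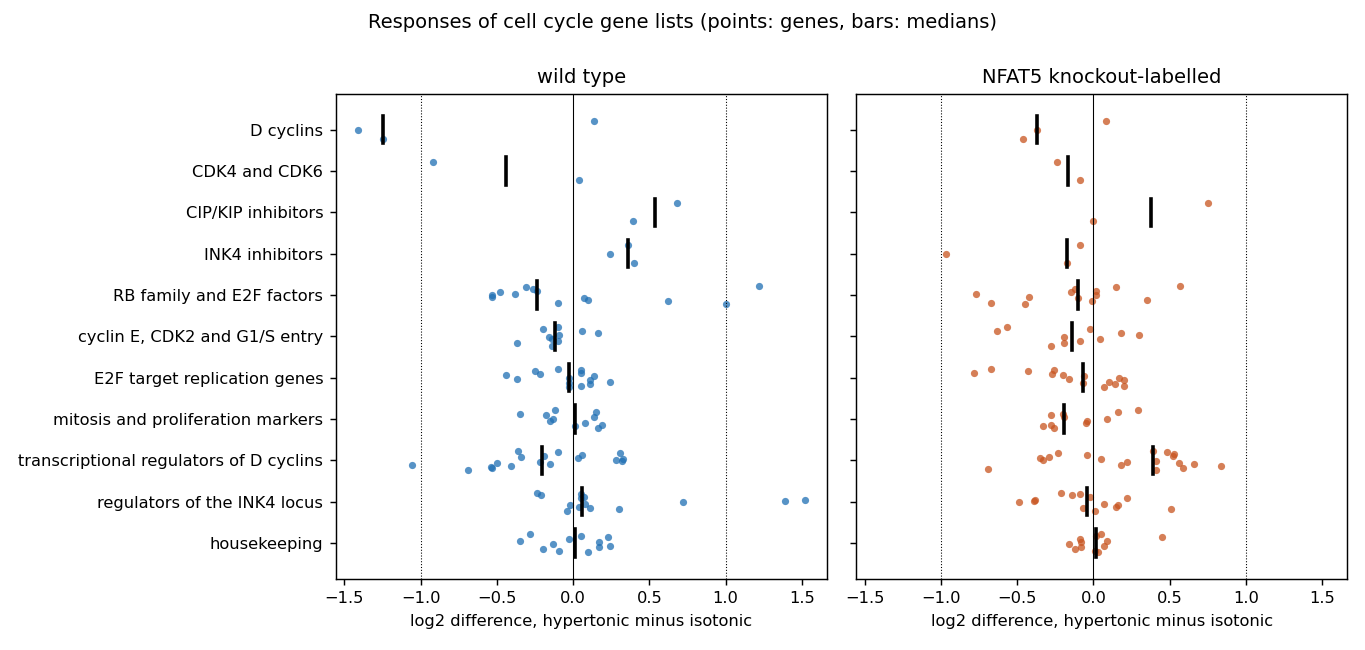
Log2 difference between hypertonic and isotonic medium (horizontal axis) for the measured genes of each list (rows) in wild-type cells (left) and NFAT5 knockout-labelled cells (right), with 1 point per gene, black bars at list medians and dotted lines at 2-fold. In wild-type cells the D cyclin median (-1.25) lies left of every other list median, carried by Ccnd1 and Ccnd2, while Ccnd3 is at 0.14. The median of the E2F target genes (-0.03) lies close to 0.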

How the data were processed

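RNA was measured in 4 pools of mouse embryonic fibroblasts, 1 array per genotype and medium, with 4 samples in each pool per the series' design text. The deposited table holds 1 log2 signal per probe set and array, made by the authors. The log2 scale was read from the values (1.57 to 13.94), and MAS5 is named, without a version, per the submitters' processing notes. Beyond that name, the method for background correction and normalization is not given in the sources used. Scanner files were not analysed here, and the number of arrays limits the precision.

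Of 35557 probe sets, 21789 had 1 gene symbol in the platform annotation, 1621 had several and 12147 none; the last 2 kinds were left out, Cdkn1a among them. Symbols were updated through Entrez identifiers (21698 matched RefSeq), and 1 older list symbol was updated. The brightest probe set stood for a gene. Differences were taken for 5 comparisons: each genotype's response, the genotypes in each medium, and the difference of responses. The counting step was tested on simulated data. The members and gene lists were chosen with earlier results of these data known. The text names all members, list genes past 2-fold or with the largest differences in a response, other list genes named for their known role and chosen after their values were seen, and the 3 genes nearest in pattern to members spanning at least 1 log2 unit. Alternatives were quantile and cyclic loess normalization, centring, 2 other dim limits, the mean of probe sets, a 1.5-fold limit and exchanged knockout-labelled arrays. Python 3.11.15, pandas 2.3.3, numpy 2.4.6, matplotlib 3.10.9, R 4.3.3 and limma 3.58.1 were used.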

Additional observations from a re-analysis of the deposited data

Results flagged for a closer look

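As deposited, the responses of the genotypes had opposite signs in 5 of the 10 genes, as they did in 48.3% of all 10542 genes above the dim limit on any array. These differences were not tested, since each response rests on 1 pair of arrays. Knockout-labelled minus wild type, they were -1.20 for Cdkn2b (0.24 in wild-type and -0.97 in knockout-labelled cells), -0.57 for Cdkn2a (0.40 and -0.17), -0.46 for Cdkn2c (0.36 and -0.09), -0.39 for Cdkn1b (0.39 and 0.00) and -0.13 for Cdk4 (0.04 and -0.09). In Cdkn1b the knockout-labelled response was 0.06 to 0.09 under the scaling alternatives and the mean of probe sets, the same sign as in wild-type cells, and it reached 0.00 in Cdk4 with centring and in Cdkn2c with cyclic loess. The count of 5 therefore does not hold under these settings. Only the values of Cdkn2b and Cdkn2a exceed 2 probe set SDs of this difference (0.48).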

How the results depend on the processing

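Quantile normalization, cyclic loess, centring and the mean of probe sets gave 200 values for the 10 genes in the 5 comparisons. None of them reversed a difference past 2-fold, and 1 moved by more than the probe set SD, the wild-type response of Cdkn1b with its probe sets averaged (0.54). The counts past 2-fold were 2 in the wild-type response, 0 in the knockout-labelled response, 1 and 1 between genotypes in isotonic and hypertonic medium, and 2 for the difference of responses, and did not change under those settings or the other dim limits. A 1.5-fold limit gave 4, 2, 2, 2 and 4, where 7.42%, 16.3%, 8.78%, 23.8% and 23.2% of all measured genes passed it. Exchanging the knockout-labelled arrays gave 4 between genotypes in isotonic medium, 0 in hypertonic medium and 4 for the difference of responses. Of all measured genes 6.8%, 4.41% and 6.92% then passed 2-fold. In the difference of responses Cdkn2b turned from -1.20 to 0.73. The exchange moved 21 of 40 values by more than the probe set SD without reversing a difference past 2-fold, and reversed 1 more, this one of Cdkn2b. The wild-type response does not use those arrays. Over all genes, the median difference of the knockout-labelled response went from -0.09 to 0.01 with quantile normalization, and the share of higher genes among those past 2-fold from 11.0% to 22.7%, or 22.1% after centring. No paired analysis was possible because each group has 1 array. With the dim limit at the 75th percentile 9 of the 10 genes were measured in the wild-type response and between genotypes in isotonic medium.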

Other observations

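As deposited, the genotypes lay closer together in hypertonic than in isotonic medium for 7 of the 10 genes, and for 35.0% of all 10542 genes above the dim limit on any array. Ccnd1 differed by -0.71 in isotonic and 0.08 in hypertonic medium, and Ccnd2 by -1.25 and -0.22. Ccnd3, Cdk4, Cdk6, Cdkn1b and Cdkn2c were the others, several of them by amounts within the probe set SD. Cdkn1c, Cdkn2a and Cdkn2b lay farther apart in hypertonic medium. The count of 7 does not hold under other scalings. Cdk4 lay farther apart there with quantile normalization (0.00 in isotonic and -0.11 in hypertonic medium), cyclic loess (0.02 and -0.08) and centring (0.04 and -0.05). Cdkn1b did so with cyclic loess (0.16 and -0.18).

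In the list of cyclin and inhibitor turnover, 14 measured genes, Cryab was the 1 gene past 2-fold in the wild-type response (2.21). In that response 1.42% of all measured genes passed 2-fold in either direction. The product of Cryab is a small heat shock protein that has also been reported as a cofactor of the Fbxo4 ubiquitin ligase for cyclin D1. Cryab differed by -0.48 in the knockout-labelled response. Fbxo4 differed by 0.05 and -0.18 in the wild-type and knockout-labelled responses, and Ambra1, also on this list, by 0.11 and -0.05. Skp2, which marks p27Kip1 for degradation, differed by -0.09 and -0.51. In the p53 and ARF list Sesn1, encoding sestrin 1, was the 1 gene past 2-fold in the wild-type response (1.51), beside the same 1.42%. It differed by -0.43 in knockout-labelled cells. Mdm2, the p53 ubiquitin ligase that ARF restrains, was higher in knockout-labelled than in wild-type cells by 0.83 in isotonic and 1.67 in hypertonic medium. Ccng1, a p53 target, was higher by 0.31 and 1.45, and Cdkn2a differed by -0.08 and -0.66. Of 9 measured genes of the p53 and ARF list 7 were above 0 in hypertonic medium (median 0.71), beside 49.4% of all measured genes. In isotonic medium 7 of 8 were (median 0.26), beside 54.8%. Pmaip1 was higher by 0.48 and 1.02, Sesn2 by 0.27 and 0.73, and Zmat3 by 0.12 and 0.71. Sesn1 and Gadd45a did not follow this direction in both media. Sesn1 differed between the genotypes by 0.10 and -1.84, and Gadd45a by -0.97 and -0.04.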
